A study of Arabidopsis thaliana with 48 samples.

Results

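The genes described here encode the SnRK1 protein kinase of Arabidopsis thaliana and the kinases that activate it. They were chosen by gene identifier, with earlier results of these data known. They are the catalytic alpha subunits KIN10, KIN11 and KIN12, the beta subunits KINB1, KINB2 and KINB3, and the gamma-type subunits KING1 and KINBG. The upstream kinases SNAK1 and SNAK2 complete the set. These genes are 10 of the 32678 in the count tables, and 9 of them passed the filter on low counts. Each gene was represented by the counted transcript model of the greatest exonic length. RNA of whole seedlings was sequenced in 2 genotypes, a mutant labelled snrk1a1/a2 and wild type, in 7 conditions each: 3 d after germination in the dark, 4 d and 5 d in the dark, 4 d and 5 d in light, and 4 d with glucose in the dark and in light. Each of the 14 groups held 3 libraries. The mutant is named after the KIN10 (alpha 1) and KIN11 (alpha 2) genes, and its titles carry the tag kd. How it was made, when light began and the glucose dose are not given in the sources used here. The comparisons ask how the transcripts of the complex itself differed with genotype, light, age and glucose.

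SnRK1 is the plant relative of yeast SNF1 and animal AMPK, a kinase that is active when sugar or energy runs short and that then promotes breakdown of reserves and restrains growth. A complex holds a catalytic alpha subunit, a beta subunit that forms its scaffold and places it in the cell, and a gamma-type subunit. In plants the gamma role is filled by KINBG, a fusion of a carbohydrate-binding part of the beta type with a gamma part, while KING1 resembles the gamma subunits of animals and yeast. SNAK1 and SNAK2, also called GRIK kinases, phosphorylate a threonine in the activation loop of the alpha subunit, which is needed for activity. Seedlings growing in the dark depend on seed reserves, and supplied glucose is known to dampen SnRK1 signalling.

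Library totals ran from 4956025 to 26126836 counts. Levels are given as CPM, the count divided by the library total times its TMM scaling factor, on the usual scale of that unit, for libraries 1, 2 and 3 of a group in that order. Levels of different genes are compared only as RPKM. It divides the count by the library total and by the length of the counted model, without the TMM factor. Differences are log2 fold changes ± standard error from an edgeR quasi-likelihood fit of all 42 libraries with n = 3 in each group. That error was worked back from the test, as the size of the log2 fold change over the square root of its F statistic. A difference is called where its Benjamini-Hochberg adjusted p over the 22586 tested genes was under 0.05. Nothing in the labels says that the libraries came from separate cultures, so p-values measure the spread between these samples. RNA came from whole seedlings, so fewer cells that express a gene and less of its RNA in each cell cannot be told apart. Several libraries stood apart. On the first principal component of all genes, the library labelled wild type 2 of dark with glucose lay at 20.3, beside the mutant libraries 1 and 3 at 10.3 and 12.2. The library labelled mutant 2 of that condition lay at -36.4, beside the wild-type libraries 1 and 3 at -36.6 and -43.2. Mutant library 3 of 5 d light was the shallowest, and its 5 embryo and seed markers summed to 1165 CPM, against at most 32.7 CPM in any other library. Wild-type library 1 of 4 d light held 62.5 CPM of the 2 pollen markers.

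The alpha subunits came first because the mutant is named after 2 of them. KIN10 (AT3G01090) lies on chromosome 3 at 31181 to 34487, minus strand, in TAIR10, and its counted model has 11 exons. KIN11 (AT3G29160) lies on chromosome 3 at 11128625 to 11132065, minus strand, with 11 exons. KIN12 (AT5G39440) lies on chromosome 5 at 15781907 to 15784699, plus strand, with 10 exons. The coding stretch of 99 bases around the activation-loop threonine shows how near these genes are to each other, which bears on whether reads can be assigned to one of them. The sequences were read from the RefSeq annotation of TAIR10.1, and capitals mark the codon of the threonine. It is residue 175 of the 512-residue KIN10 protein, 176 of KIN11 and 175 of KIN12. The stretches span chr3:33087-33277 minus, chr3:11130617-11130810 minus and chr5:15782931-15783123 plus, each with an intron removed.
KIN10: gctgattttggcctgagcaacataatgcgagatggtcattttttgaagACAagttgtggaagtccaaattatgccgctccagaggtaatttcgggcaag
KIN11: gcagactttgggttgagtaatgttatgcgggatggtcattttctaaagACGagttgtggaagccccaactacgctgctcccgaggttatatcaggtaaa
KIN12: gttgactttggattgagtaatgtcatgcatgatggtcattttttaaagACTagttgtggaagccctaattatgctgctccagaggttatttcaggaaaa
KIN10 and KIN11 differ at 23 of these 99 bases, KIN10 and KIN12 at 19, and KIN11 and KIN12 at 14. Over the aligned coding sequence KIN10 and KIN11 shared 76.8% of bases and 82.5% of residues. Their longest identical run was 29 bases and they shared 0 windows of 50 bases.

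KIN10 did not pass the test as lower in mutant seedlings in any of the 7 conditions. In the dark without glucose its level was 126, 86.3 and 109 CPM in mutant seedlings at 3 d, against 75.1, 83.3 and 71.0 CPM in wild type. At 4 d it was 116, 117 and 126 CPM in mutant libraries, against 96.1, 98.5 and 121 CPM in wild type. The 5 d level was 131, 132 and 132 CPM in mutant libraries, against 256, 118 and 140.5 CPM in wild type, where library 1 was the highest. The genotypes overlapped at 4 d and 5 d and not at 3 d, where the mutant libraries were the higher. None of the 3 differences was called in the fit of all libraries, at 0.49 ± 0.39 (adjusted p = 0.36), 0.18 ± 0.39 (adjusted p = 0.71) and -0.38 ± 0.39 (adjusted p = 0.417). The fit of the 3 d libraries alone called that difference, at 0.49. The counts are per transcript model and not per exon, so where along KIN10 or KIN11 the reads fell could not be seen, and a whole-gene count does not check how the genes were altered. The name mutant is used here for the libraries labelled so.

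In light without glucose, KIN10 was high in 3 mutant libraries. At 4 d its level was 541, 123 and 149 CPM in mutant libraries, against 136, 111 and 96.5 CPM in wild type. At 5 d it was 614, 174 and 588 CPM in mutant libraries, against 122, 192 and 108 CPM in wild type. Library 1 of 4 d and libraries 1 and 3 of 5 d stood at 541 CPM or more. Mutant libraries 2 of both ages lay inside the wild-type range, and library 3 of 4 d lay just above it. The differences were called at 1.24 ± 0.40 (adjusted p = 0.00905) and 1.71 ± 0.40 (adjusted p = 0.000528). Those 3 libraries were picked for their high KIN10, so a smaller difference without them follows from the choice. Without them the difference was 0.20 at 4 d, not called, on mutant libraries 2 and 3. At 5 d it was 0.35 on mutant library 2 alone. Leaving out mutant library 1 of 4 d alone left 0.25 at 4 d, and fitting only the libraries of this comparison also ended the 4 d call, at 1.30. One of the 3, library 3 of 5 d, is the library with high embryo and seed markers. With glucose the levels were 81.0, 81.0 and 114 CPM in mutant libraries, against 140.3, 86.2 and 82.2 CPM in wild type, in the dark. In light with glucose they were 198, 119.5 and 118 CPM in mutant libraries, against 82.7, 92.0 and 96.4 CPM in wild type, with no overlap, and neither difference was called (-0.16 ± 0.39 and 0.68 ± 0.39). The fit of these light libraries alone called the second (0.70).

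KIN11, the second catalytic subunit, fell in the mutant when seedlings had light and glucose. Its level there was 16.4, 16.3 and 15.5 CPM in mutant libraries, against 34.1, 32.3 and 30.3 CPM in wild type. All 3 mutant libraries lay below all 3 wild-type libraries, and the difference was -1.01 ± 0.18 (adjusted p = 0.000541). In the dark with glucose it was 14.6, 28.9 and 19.4 CPM in mutant libraries, against 28.0, 18.4 and 28.7 CPM in wild type. Those groups overlapped through the libraries labelled mutant 2 and wild type 2, and the difference of -0.26 ± 0.17 was not called. Without these 2 libraries it was -0.73 and was called, on 2 libraries in each group. They were picked for lying beside the other genotype, so a wider difference is favoured by the choice.

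Without glucose KIN11 differed less between the genotypes. At 4 d dark it was 27.0, 38.8 and 34.0 CPM in mutant libraries, against 47.9, 40.5 and 49.4 CPM in wild type, with no overlap. This difference was called at -0.47 ± 0.17 (adjusted p = 0.0204). The call was lost without mutant library 1 (-0.34) and without wild-type library 1 (-0.44) or 3 (-0.42), and also when library totals were used with no scaling factor (-0.21). At 3 d dark the level was 30.8, 34.4 and 24.7 CPM in mutant libraries, against 32.5, 36.4 and 35.0 CPM in wild type. At 5 d dark it was 34.8, 35.3 and 40.2 CPM in mutant libraries, against 42.1, 44.3 and 41.9 CPM in wild type. The 3 d groups overlapped, and the 5 d mutant libraries were all below those of wild type. In light the level was 37.2, 32.0 and 39.9 CPM in mutant libraries of 4 d, against 47.0, 43.1 and 43.9 CPM in wild type. The 5 d level was 47.0, 38.4 and 39.4 CPM in mutant libraries, against 58.4, 42.4 and 54.0 CPM in wild type. The light groups did not overlap at 4 d and overlapped at 5 d. These 4 differences lay between -0.21 and -0.31 and none was called. Without wild-type library 2 of 5 d light, the 5 d light difference was -0.44 and was called.

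**Figure D1:**
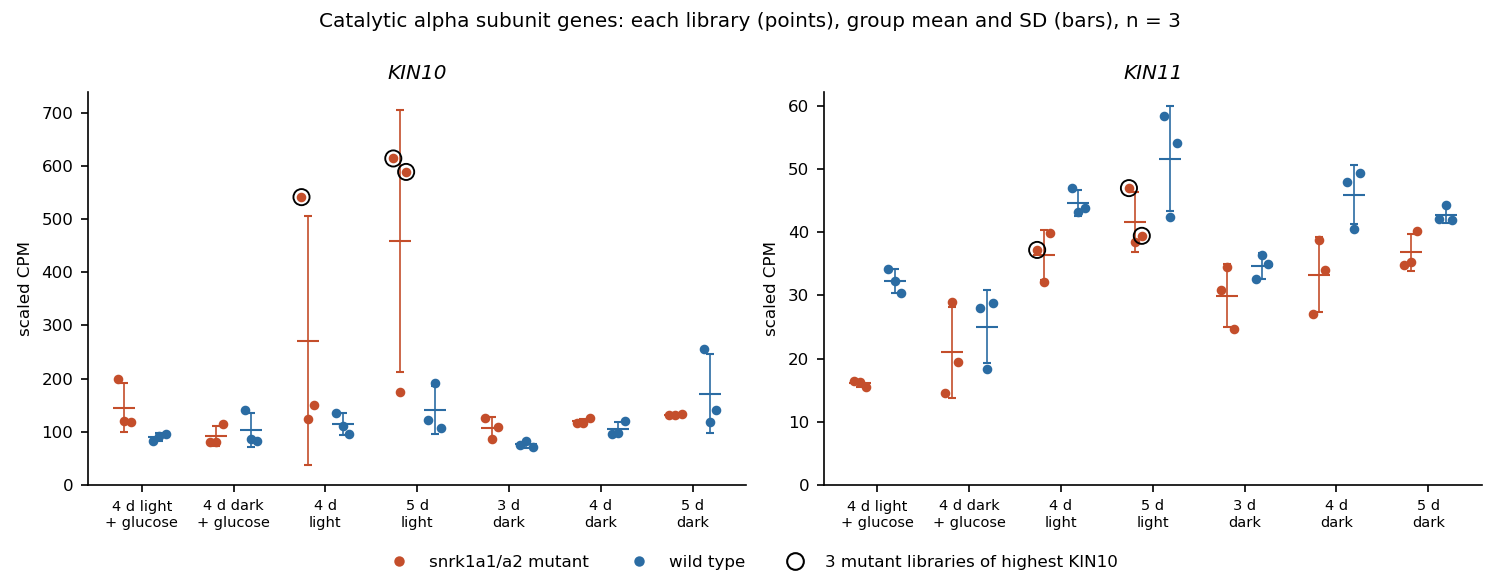
Level of KIN10 and KIN11 in scaled CPM (y axis) in each of the 42 libraries by condition (x axis), with mutant points left of wild-type points and bars at each group mean with its SD (n = 3). In light, 3 mutant libraries carry KIN10 at 541 CPM or more, and KIN11 in light with glucose lies between 15.5 and 16.4 CPM in the mutant and between 30.3 and 34.1 CPM in wild type.

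KIN12, the least known alpha gene, was close to absent from these libraries. It had 13 counts in all, above 0 in 7 of 42 libraries, and 7 of the 13 counts were in mutant library 3 of 5 d light (1.28 CPM). A count of 0 allows a level of up to 0.115 CPM in the deepest library. In mutant library 1 of 5 d light, the shallowest with a count of 0, it allows up to 0.423 CPM. Both values take 3 counts of the unscaled library total as the floor. KIN12 did not pass the filter and was not tested. Per length, KIN10 was the more abundant alpha transcript in every group. It made 76.7% ± 5.71 of alpha RPKM (SD, n = 3) in the mutant at 3 d dark, against 67.3% ± 1.6 in wild type. In light with glucose the share was 89.0% ± 2.55 in the mutant, against 72.3% ± 2.74 in wild type. At 5 d light it was 88.8% ± 6.81 in the mutant, against 70.7% ± 8.82 in wild type. In the mutant the mean share ran from 76.7% to 89.0% over the 7 conditions, and in wild type from 67.3% to 78.9%.

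Among the beta subunits, KINB1 carried the largest differences between the genotypes among the SnRK1 genes. KINB1 (AT5G21170) lies on chromosome 5 at 7205667 to 7208496, plus strand, in TAIR10, with 5 exons in the counted model. It was lower in the mutant in all 5 conditions without glucose, and no alternative processing or left-out library ended any of these calls. Its promoter is shown with that of KING1, since both genes moved together over the groups (Pearson r = 0.96 over 14 group means, which share libraries and scaling). Each line is the 250 bases before the start annotated by RefSeq in TAIR10.1, chr5:7205227-7205476 plus for KINB1 and chr3:17987128-17987377 plus for KING1, with matches to the searched motifs in capitals.
KINB1: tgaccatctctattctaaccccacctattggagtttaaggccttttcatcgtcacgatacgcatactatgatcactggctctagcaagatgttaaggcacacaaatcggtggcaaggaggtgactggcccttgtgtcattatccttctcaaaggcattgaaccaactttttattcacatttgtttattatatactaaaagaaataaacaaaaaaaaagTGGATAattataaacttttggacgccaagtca
KING1: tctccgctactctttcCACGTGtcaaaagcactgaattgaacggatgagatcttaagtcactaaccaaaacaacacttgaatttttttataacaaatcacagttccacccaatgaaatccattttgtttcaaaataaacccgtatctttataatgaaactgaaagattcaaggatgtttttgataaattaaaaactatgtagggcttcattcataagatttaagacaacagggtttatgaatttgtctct
The first motif searched on both strands was the G-box, spelled CACGTG. Its ACGT core was searched as well and overlaps it. The I-box core, spelled GATAAG, came next. The evening element was spelled AAATATCT. The sugar response element was spelled TATCCA. KINB1 held the sugar response element 32 bases before the start, on the minus strand, so its capitals show the reverse complement. KING1 held the G-box 234 bases before the start, with the core inside it. Of 31911 Arabidopsis promoters of this length, 13.1% held the sugar response element, 5.9% the G-box, 42.6% the core, 12.7% the I-box core and 4.5% the evening element. A match describes letters in this window and no binding was measured.

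KINB1 fell in the mutant at every age in the dark. Its level at 3 d was 28.1, 39.3 and 23.2 CPM in mutant libraries, against 61.1, 95.7 and 61.2 CPM in wild type. At 4 d it was 33.0, 31.6 and 36.3 CPM in mutant libraries, against 185, 194 and 269.5 CPM in wild type. At 5 d it was 37.5, 40.0 and 40.8 CPM in mutant libraries, against 254, 283 and 312 CPM in wild type. No mutant library reached a wild-type library of the same age. The differences were -1.26 ± 0.23 (adjusted p = 7.21e-05), -2.68 ± 0.24 (adjusted p = 1.45e-10) and -2.84 ± 0.24 (adjusted p = 1.62e-11), which are levels 2.4-fold, 6.42-fold and 7.17-fold lower in the mutant.

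The same held in light without glucose. At 4 d KINB1 was 53.0, 41.7 and 33.0 CPM in mutant libraries, against 205, 149.5 and 153 CPM in wild type. The 5 d level was 55.8, 36.3 and 62.0 CPM in mutant libraries, against 360.2, 278 and 372 CPM in wild type. The ranges did not overlap, and the differences were -1.99 ± 0.23 (adjusted p = 1.59e-08) and -2.72 ± 0.24 (adjusted p = 2.45e-11). With glucose the levels were low in both genotypes. They were 12.3, 22.6 and 18.2 CPM in mutant libraries, against 21.7, 18.4 and 29.0 CPM in wild type, in the dark. In light they were 24.7, 18.6 and 17.9 CPM in mutant libraries, against 24.2, 21.8 and 21.0 CPM in wild type. Both pairs of groups overlapped, in the dark through the libraries labelled mutant 2 and wild type 2, and the differences of -0.38 ± 0.23 and -0.13 ± 0.23 were not called.

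In wild type KINB1 increased with age. It rose at 4 d dark over 3 d dark (1.57 ± 0.23, adjusted p = 1.04e-05) and at 5 d light over 4 d light (0.99 ± 0.23, adjusted p = 0.00133), and the change of 0.39 ± 0.22 at 5 d dark over 4 d dark was not called. In the mutant none of the 3 steps was called (0.15, 0.23 and 0.27). The step of 4 d over 3 d in the dark differed between the genotypes, by -1.42 ± 0.32 (adjusted p = 0.00629), while the later dark step did not pass the test of the difference (-0.16 ± 0.32). Glucose libraries had less KINB1 than untreated ones in both genotypes, by -0.93 ± 0.23 (adjusted p = 0.00173) in the dark and -1.06 ± 0.23 (adjusted p = 0.000412) in light in the mutant. In wild type the drop was -3.23 ± 0.24 (adjusted p = 1.01e-11) in the dark and -2.92 ± 0.24 (adjusted p = 4.03e-11) in light. The glucose libraries form a title series of their own at 4 d, so glucose and series cannot be told apart in any glucose comparison. Subtracting the series difference of the 3 d dark columns ended the call in the mutant in the dark (-0.90 ± 0.34) and none of the other 3. Those columns differed by about sampling noise and were counted as the same libraries. Their subtraction adds error and cannot test a difference between the glucose samples and the others, here or for the genes below. The drop was smaller in the mutant, with a difference of 2.30 ± 0.33 (adjusted p = 3.64e-06) in the dark and 1.86 ± 0.33 (adjusted p = 5.78e-05) in light.

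KINB2 and KINB3, the other beta subunits, stayed within narrow limits. KINB2 (AT4G16360, chromosome 4, 9245122 to 9247251, plus strand, 4 exons) ranged over the 14 group means by 1.86-fold, and KINB3 (AT2G28060, chromosome 2, 11949986 to 11952204, minus strand, 4 exons), which lacks the carbohydrate-binding part, by 1.53-fold, against 19.0-fold for KINB1. KINB2 was 38.9, 31.2 and 30.4 CPM in mutant libraries of 5 d dark, against 45.2, 41.1 and 40.4 CPM in wild type. These groups did not overlap and the difference was called at -0.34 ± 0.13 (adjusted p = 0.0229). The call was lost without mutant library 2 (-0.29) or 3 (-0.27) or wild-type library 1 (-0.28), without the filter (-0.32), in the fit of these libraries alone (-0.28) and with no scaling factor (-0.11). KINB2 was the one beta gene that rose with glucose, in the mutant in the dark (0.54 ± 0.13, adjusted p = 0.000904) and in wild type in light (0.43 ± 0.13, adjusted p = 0.00693), the second being lost without wild-type library 3 of 4 d light (0.36). Its levels with glucose were 54.9, 62.7 and 67.4 CPM in the mutant in the dark, against 43.3, 43.1 and 40.8 CPM without glucose. In wild type in light they were 58.9, 66.3 and 62.0 CPM with glucose, against 46.0, 51.3 and 41.2 CPM without. Neither pair of groups overlapped. Counts of the shorter KINB2 model were 61.7% to 77.5% of those of the counted model over the group means, so the model used sets its level.

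KINB3 was 21.5, 18.0 and 22.2 CPM in mutant libraries of 3 d dark, against 16.1, 14.5 and 14.6 CPM in wild type. The mutant libraries were all the higher, and the difference was called at 0.45 ± 0.15 (adjusted p = 0.0222). It was lost without mutant library 1 (0.42) or 3 (0.39) or wild-type library 2 (0.42) or 3 (0.43). At 4 d dark the difference of 0.31 ± 0.16 was not called, and it was called by DESeq2 (0.36), in the fit of those libraries alone (0.37) and with no scaling factor (0.57). KINB3 also fell with glucose in the mutant in the dark, to 11.5, 14.1 and 16.7 CPM with glucose, against 18.4, 19.3 and 20.4 CPM without, and the groups did not overlap. This change was -0.46 ± 0.15 (adjusted p = 0.0173) and was lost without mutant library 3 of 4 d dark (-0.41) or mutant library 1 of dark with glucose (-0.33), and when the series difference was subtracted (-0.43). At 5 d light the sign of both genes turned on the scaling. KINB2 differed by -0.06 ± 0.13 and KINB3 by -0.03 ± 0.16, neither called, and with no scaling factor they were called at 0.39 and 0.42. That setting also called KINB2 (0.31) and KINB3 (0.60) at 4 d light and KINB3 (0.50) at 5 d dark, where the fit with TMM gave 0.03, 0.32 and 0.27. The difference of KINB2 in light with glucose (-0.22 ± 0.13) was called without mutant library 2 (-0.41).

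Per length, the beta transcripts differed in their makeup. KINB1 made 35.2% ± 1.58 of beta RPKM in the mutant at 4 d dark, against 78.0% ± 2.82 in wild type. At 5 d light its share was 48.6% ± 10.9 in the mutant, against 85.7% ± 1.95 in wild type. In light with glucose it was 24.1% ± 6.68 in the mutant, against 24.3% ± 2.20 in wild type. Without glucose the shares of the genotypes did not overlap in any of the 5 conditions, and with glucose they overlapped in both. In the dark with glucose the overlap came through the libraries labelled mutant 2 (24.9%) and wild type 2 (23.1%). KINB2 led with glucose, at 53.3% ± 3.16 in the mutant in the dark, against 47.1% ± 2.04 in wild type, and at 45.3% ± 5.75 in the mutant in light, against 49.7% ± 2.07 in wild type. These shares are free of the scaling factor, since all genes of a library carry the same one.

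**Figure D2:**
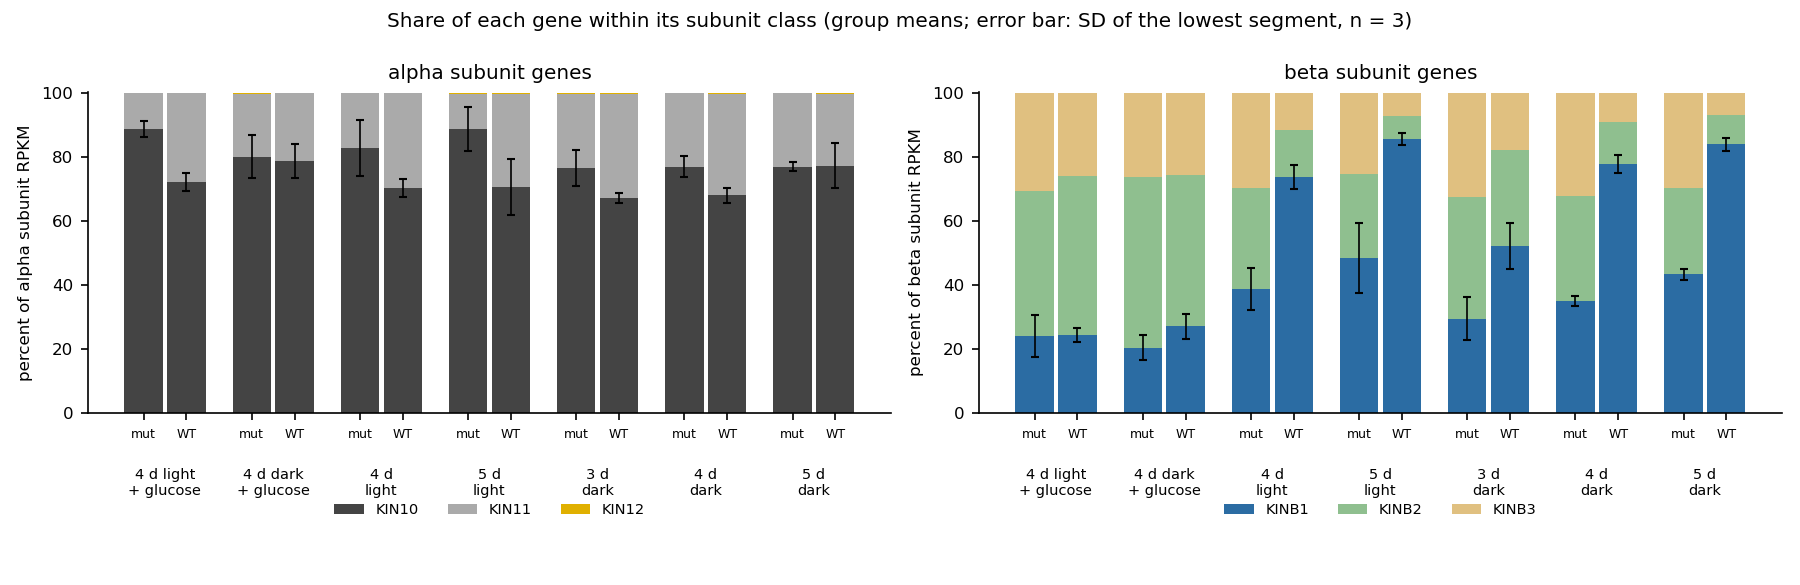
Share of each gene within the alpha subunits and within the beta subunits, in percent of RPKM (y axis), as stacked group means by condition (x axis), with mutant bars left of wild-type bars and an SD bar (n = 3) on the lowest segment. KINB1 fills 52.3% to 85.7% of the beta bars in wild type without glucose and 29.5% to 48.6% in the mutant, and KIN10 leads the alpha bars in every group.

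KING1 (AT3G48530), the gamma-like subunit, followed KINB1. It lies on chromosome 3 at 17987378 to 17989763, plus strand, with 6 exons, and its promoter is printed beside that of KINB1. In the dark it was 63.0, 67.3 and 58.7 CPM in mutant libraries of 3 d, against 113, 158 and 121 CPM in wild type. At 4 d it was 85.8, 64.5 and 76.8 CPM in mutant libraries, against 267, 241 and 301 CPM in wild type. At 5 d it was 93.2, 93.3 and 103 CPM in mutant libraries, against 363, 402 and 421 CPM in wild type. Every mutant library was below every wild-type library of its age. The differences were -1.05 ± 0.23 (adjusted p = 0.000815), -1.83 ± 0.24 (adjusted p = 9.38e-08) and -2.04 ± 0.24 (adjusted p = 1.11e-08).

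In light KING1 was 136, 82.2 and 75.5 CPM in mutant libraries of 4 d, against 211, 185 and 189 CPM in wild type. The 5 d level was 149, 76.2 and 182 CPM in mutant libraries, against 357, 311 and 359 CPM in wild type. The groups did not overlap, although the 3 mutant libraries of high KIN10 were also the highest mutant libraries for KING1. The differences were -0.99 ± 0.23 (adjusted p = 0.000581) and -1.34 ± 0.24 (adjusted p = 1.1e-05). No alternative and no left-out library ended any of the 5 calls without glucose. With glucose the level was 65.0, 85.5 and 64.9 CPM in the mutant in the dark, against 122, 66.0 and 118 CPM in wild type. In light it was 99.3, 59.1 and 73.0 CPM in mutant libraries, against 87.1, 82.8 and 84.1 CPM in wild type. Both pairs overlapped and neither difference was called (-0.51 ± 0.23 and -0.13 ± 0.23). Without the libraries labelled mutant 2 and wild type 2 of dark with glucose, the dark difference was -0.89 and was called. A wider difference is favoured by how those libraries were picked, as for KIN11.

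**Figure D3:**
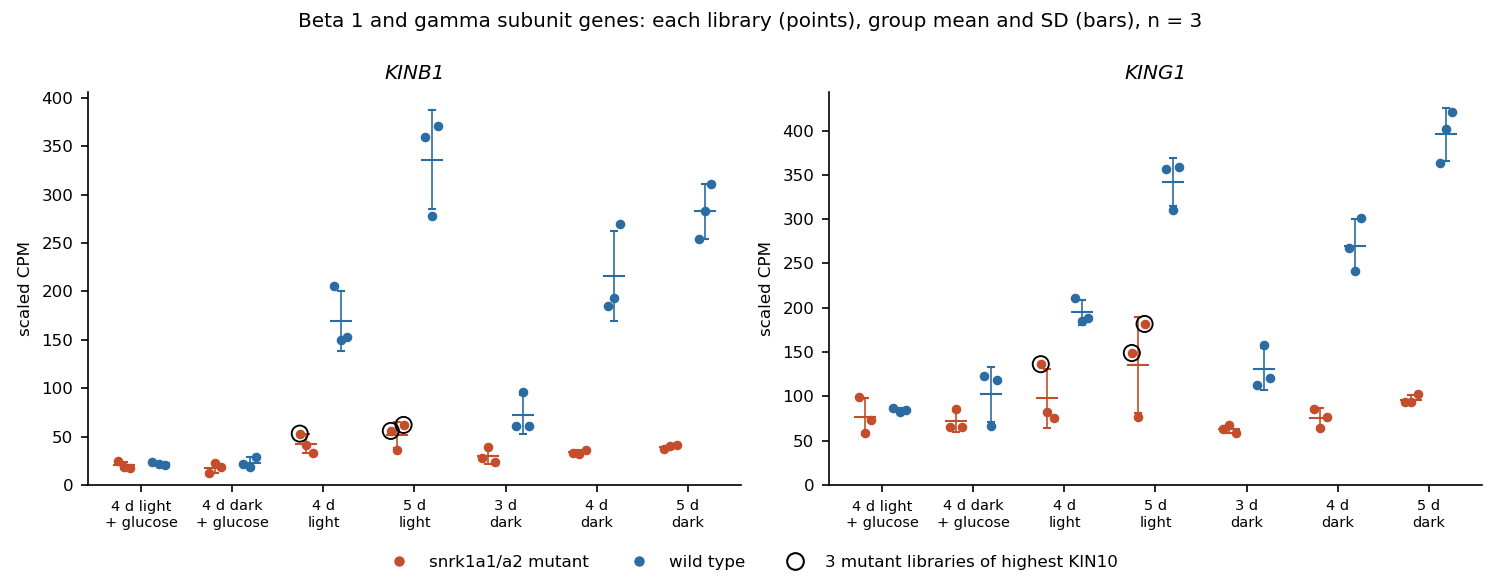
Level of KINB1 and KING1 in scaled CPM (y axis) in each library by condition (x axis), with mutant points left of wild-type points, bars at each group mean with its SD (n = 3), and a ring round the 3 mutant libraries of highest KIN10. Wild-type KINB1 lies between 149.5 and 371.5 CPM at 4 d and 5 d without glucose and between 18.4 and 29.0 CPM with glucose, while mutant KINB1 is at most 62.0 CPM throughout.

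KING1 also rose with age in wild type, by 1.04 ± 0.23 (adjusted p = 0.00131) at 4 d dark over 3 d dark and by 0.81 ± 0.23 (adjusted p = 0.00903) at 5 d light over 4 d light. The step of 0.55 ± 0.23 at 5 d dark over 4 d dark was not called, and was called in the fit of those libraries alone (0.54). The mutant steps of 0.27, 0.35 and 0.47 were not called, and the last of these was called at 0.77 without mutant library 1 of 4 d light and at 0.75 without mutant library 2 of 5 d light. Neither dark step differed between the genotypes by its own test (-0.78 ± 0.33 and -0.20 ± 0.33) in the fit of all libraries, and the first was called in the fit of its own libraries alone (-0.76). With glucose KING1 was lower in wild type, by -1.40 ± 0.24 (adjusted p = 1.41e-05) in the dark and -1.20 ± 0.23 (adjusted p = 0.000122) in light. In the mutant the changes of -0.08 ± 0.23 and -0.34 ± 0.23 were not called. The difference of these changes was 1.32 ± 0.33 (adjusted p = 0.00194) in the dark. In light it was 0.86 ± 0.33 (adjusted p = 0.0458), a call that was lost without any 1 of 10 of the 12 libraries, at 0.64 to 0.90, and with no scaling factor (0.61).

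KINBG (AT1G09020, chromosome 1, 2899914 to 2904815, minus strand, 13 exons), the beta-gamma subunit, varied by 1.52-fold over the group means. It was 66.0, 62.0 and 67.9 CPM in mutant libraries of 5 d dark, against 51.4, 46.7 and 48.8 CPM in wild type. All mutant libraries were above all wild-type libraries there, and the difference was 0.42 ± 0.13 (adjusted p = 0.00626), which no alternative ended. In the other 6 conditions it differed by -0.24 to 0.27 and was not called. It was called without mutant library 1 of 5 d light (0.34), without mutant library 2 of light with glucose (-0.46) and, at 5 d light, with no scaling factor (0.72). Of the summed RPKM of both gamma-type genes, KING1 held 67.6% ± 0.841 in the mutant at 5 d dark, against 91.9% ± 0.883 in wild type. At 3 d dark it held 59.3% ± 3.05 in the mutant, against 73.8% ± 3.9 in wild type.

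SNAK2 (AT3G45240), an activating kinase, was lower in the mutant at 4 d and 5 d without glucose. It lies on chromosome 3 at 16570478 to 16573740, minus strand, with 11 exons. An annotated gene on the same strand, AT3G45242, overlaps 86.0% of the counted model, so the counts of both cannot be told apart. At 4 d dark it was 31.1, 36.1 and 35.4 CPM in mutant libraries, against 59.8, 65.2 and 68.2 CPM in wild type. At 5 d dark it was 29.2, 37.8 and 32.1 CPM in mutant libraries, against 73.0, 108 and 80.5 CPM in wild type. Neither pair of groups overlapped, and the differences were -0.91 ± 0.14 (adjusted p = 1.61e-06) and -1.40 ± 0.14 (adjusted p = 6.62e-10). At 3 d dark it was 45.6, 46.1 and 48.7 CPM in mutant libraries, against 59.8, 56.7 and 57.1 CPM in wild type, also with no overlap. That difference of -0.31 ± 0.14 was not called (adjusted p = 0.0902), though DESeq2 called it (-0.34), as did the fit of these libraries alone (-0.31).

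In light SNAK2 was 31.5, 27.5 and 32.5 CPM in mutant libraries of 4 d, against 52.0, 36.9 and 40.7 CPM in wild type. At 5 d it was 34.4, 36.1 and 25.0 CPM in mutant libraries, against 55.7, 43.4 and 49.5 CPM in wild type. The mutant libraries were below those of wild type at both ages. The differences were -0.50 ± 0.14 (adjusted p = 0.0033) and -0.63 ± 0.14 (adjusted p = 0.000343). The 4 d call was lost without wild-type library 1 (-0.35), and both calls were lost with no scaling factor (-0.22 and -0.18). Without the 3 mutant libraries of high KIN10, which left mutant library 2 alone at 5 d, the 5 d difference was -0.42. With glucose SNAK2 was 32.6, 41.4 and 38.0 CPM in the mutant in the dark, against 37.0, 36.0 and 40.4 CPM in wild type. In light it was 28.8, 29.8 and 32.5 CPM in mutant libraries, against 30.6, 31.0 and 35.4 CPM in wild type. These groups overlapped, at -0.02 ± 0.14 and -0.09 ± 0.14.

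Within wild type SNAK2 was lower in light than in the dark, by -0.57 ± 0.14 (adjusted p = 0.00234) at 4 d and -0.81 ± 0.14 (adjusted p = 2.56e-05) at 5 d. In the mutant light and dark differed by -0.16 ± 0.14 and -0.05 ± 0.14, neither called. The light difference itself differed between the genotypes at 5 d (0.77 ± 0.20, adjusted p = 0.00486), a call that was lost in the fit of these libraries alone (0.65), and not at 4 d (0.41 ± 0.20). With glucose in the dark SNAK2 was lower in wild type (-0.77 ± 0.14, adjusted p = 4.22e-05) and not called in the mutant (0.13 ± 0.14), and these changes differed (0.90 ± 0.20, adjusted p = 0.000637). In light the wild-type change was -0.42 ± 0.14 (adjusted p = 0.0187), lost without wild-type library 1 of 4 d light (-0.26), without wild-type library 1 (-0.38) or 2 (-0.40) of light with glucose, with the series difference subtracted (-0.46) and with no scaling factor (-0.15). In the dark the mutant fell at 4 d over 3 d (-0.45 ± 0.14, adjusted p = 0.018), lost without mutant library 3 of 3 d (-0.43) or 1 of 4 d (-0.39), while wild type was not called (0.15 ± 0.14). The difference of these steps was -0.61 ± 0.20 (adjusted p = 0.0425) and was lost without any 1 of the 12 libraries (-0.66 to -0.54). Wild type rose at 5 d dark over 4 d dark (0.44 ± 0.14, adjusted p = 0.0436), lost under 9 alternatives, 5 of them a left-out wild-type library (0.25 to 0.49). With the replicate number as a block it was 0.43 and not called.

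SNAK1 (AT5G60550, chromosome 5, 24339229 to 24342590, plus strand, 13 exons), the second activating kinase, did not differ between the genotypes in any condition by the test. Its counted model lies wholly inside a second annotated gene of the same strand, AT5G60548, so the counts of both cannot be told apart here either. It was 33.5, 33.3 and 21.5 CPM in mutant libraries of 5 d light, against 25.3, 25.8 and 22.7 CPM in wild type. Mutant library 3 was the lowest of all 6, and the difference of 0.27 ± 0.13 was called without it (0.44) and with no scaling factor (0.71). Without the 3 mutant libraries of high KIN10, which left mutant library 2 alone, the difference was 0.47. At 5 d dark the difference of 0.18 ± 0.12 was called without wild-type library 2 (0.32) and with no scaling factor (0.41). SNAK1 was lower in light than in the dark in wild type at 5 d, at 25.3, 25.8 and 22.7 CPM in light, against 29.6, 38.2 and 29.5 CPM in the dark. This change was -0.40 ± 0.13 (adjusted p = 0.0122), with no overlap, and was lost without wild-type library 2 of 5 d dark (-0.27) or 3 of 5 d light (-0.35) and in the fit of these libraries alone (-0.36). In the mutant at 4 d it was 24.1, 27.2 and 27.9 CPM in light, against 38.1, 38.1 and 31.8 CPM in the dark, also with no overlap. That change of -0.44 ± 0.12 (adjusted p = 0.0439) was lost under 8 alternatives, 5 of them a left-out library (-0.48 to -0.38).

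**Figure D4:**
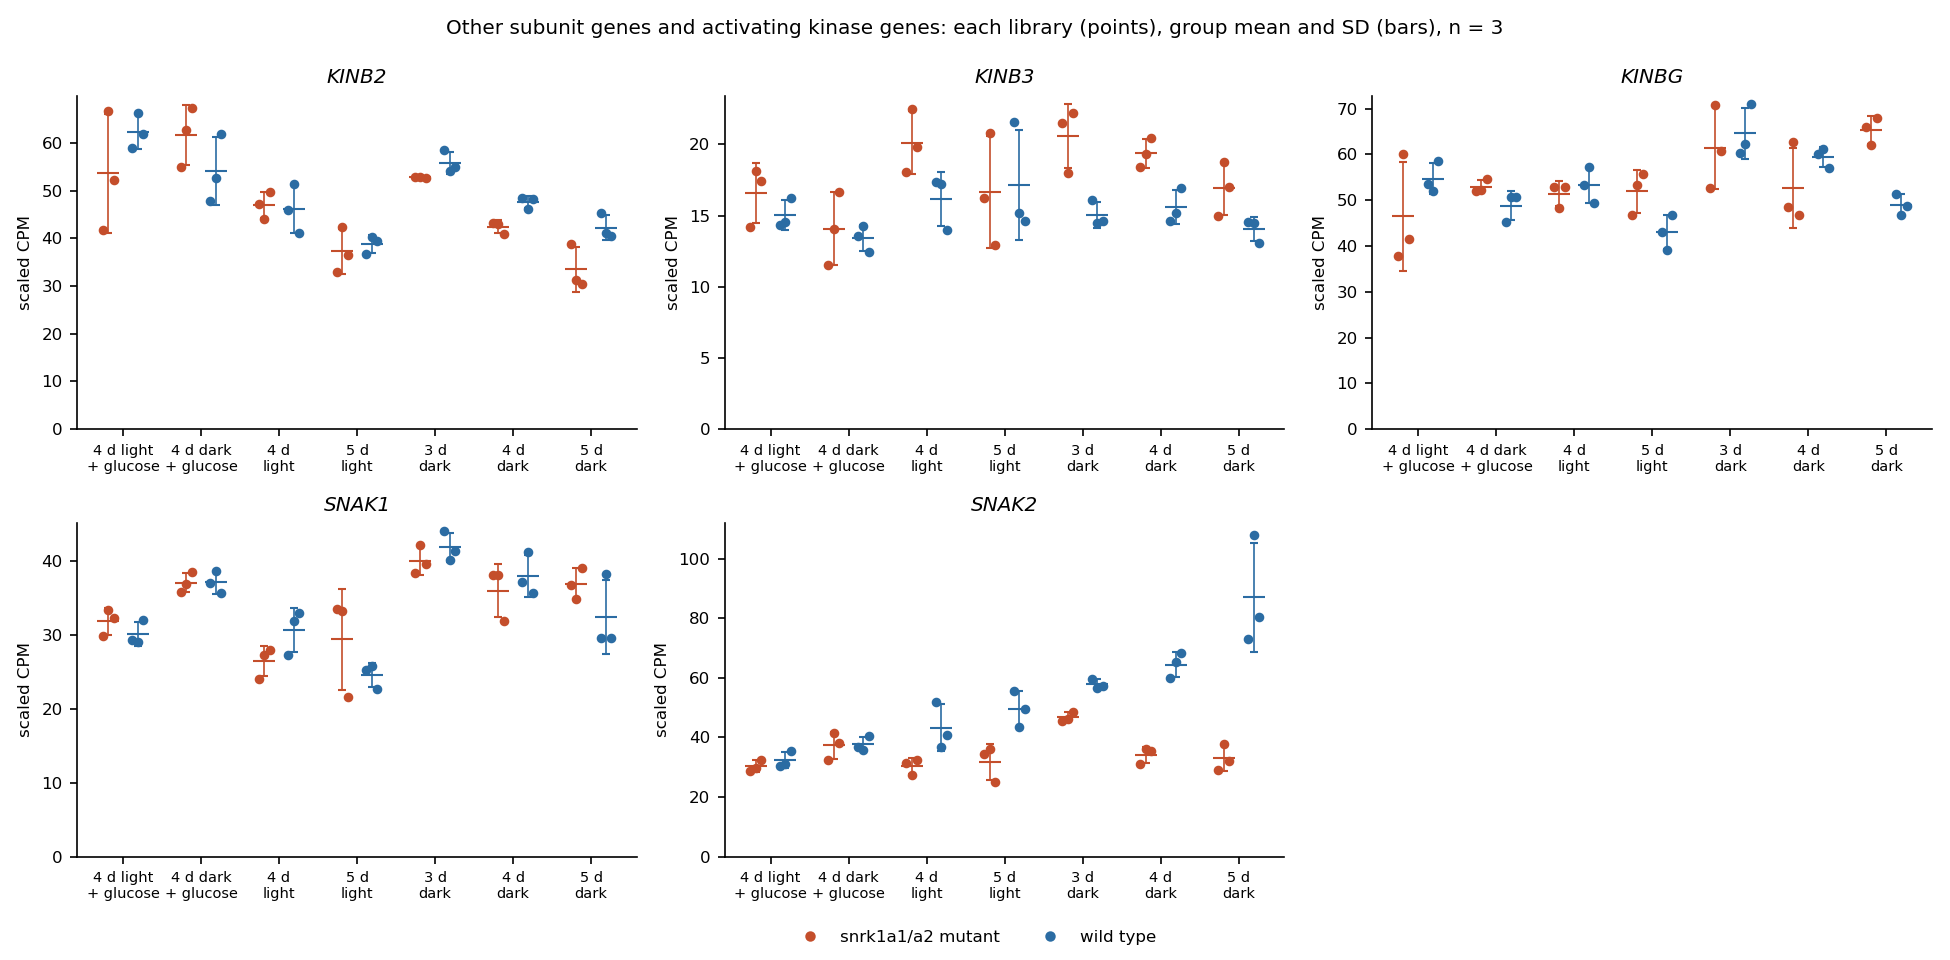
Level of KINB2, KINB3, KINBG, SNAK1 and SNAK2 in scaled CPM (y axis) in each library by condition (x axis), with mutant points left of wild-type points and bars at each group mean with its SD (n = 3). The first 4 genes keep within 1.86-fold over their group means, and SNAK2 spans 2.87-fold, with its highest libraries in wild type at 5 d dark (73.0 to 108 CPM).

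Ordered by level, the groups of most genes formed a continuum. Of the 13 steps between neighbouring group means, the ranges of neighbours did not overlap in 5 for KING1, 3 for SNAK2, 2 for KINB1, 2 for KINB2 and 1 for KIN10, and in 0 for KIN11, KINB3, KINBG and SNAK1. For KINB1 the 4 wild-type groups of 4 d and 5 d without glucose came first, from 336 ± 51.2 CPM (SD, n = 3) at 5 d light to 169 ± 31.1 CPM at 4 d light, and each overlapped the next. A gap followed, then wild type at 3 d dark (72.7 ± 19.9 CPM) and the 5 mutant groups without glucose, and the 4 glucose groups came last. For KING1 the first 4 places went to the same wild-type groups, in the order 5 d dark (396 ± 29.7 CPM), 5 d light (342 ± 27.2 CPM), 4 d dark (269.9 ± 29.9 CPM) and 4 d light (195 ± 14 CPM), with no overlap between neighbours. KIN11 was highest in wild type at 5 d light (51.6 ± 8.26 CPM) and had the 3 lowest of 14 places taken by glucose groups, down to 16.1 ± 0.476 CPM in mutant light with glucose. Per length, the median over libraries was highest for KING1 (66.4 RPKM) and KIN10 (54.1 RPKM), and lay between 17.3 RPKM (SNAK2) and 32.4 RPKM (KINB1) for the other 7 tested genes.

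Counted over the 9 tested genes, the genotypes differed most without glucose. In the dark 3 genes were called at 3 d (1 higher and 2 lower in the mutant), 4 at 4 d (all lower) and 5 at 5 d (1 higher, 4 lower), where 31.6%, 58% and 61.3% of all tested genes were called in either direction. Of all genes 17.3%, 29.5% and 29.9% were higher and 14.3%, 28.5% and 31.4% lower. In light 4 were called at 4 d and 4 at 5 d, each with 1 higher and 3 lower, against 54% and 59.8% of all genes. Of all genes 28.8% and 33.4% were higher and 25.2% and 26.4% lower there. Counted in either direction, the calls among the 9 genes lay near or below the share of all genes. Those lower in the mutant lay above it by few genes, with KINB1 and KING1 among them in each of the 5 conditions. No shift of the set is read from these counts. With no scaling factor the counts higher and lower were 1 and 2 at 3 d dark, 1 and 3 at 4 d dark, 3 and 3 at 5 d dark, 3 and 2 at 4 d light and 5 and 2 at 5 d light. Of all 22586 tested genes that setting called 7295, 12968, 13833, 12531 and 14978 in the same order. Of these calls 70.3%, 66.2%, 60.8%, 70.8% and 75.7% were higher in the mutant. With TMM, 1 gene was called in light with glucose, and it fell in the mutant, against 9.46% of all genes (4.29% higher and 5.17% lower). In the dark with glucose edgeR called 0 genes here, against 0% of all genes, with 1 at an unadjusted p under 0.05 and 0 by DESeq2. Without the libraries labelled mutant 2 and wild type 2, KIN11 and KING1 were called. Those libraries were picked for lying beside the other genotype, so wider genotype differences are favoured by the choice. The 0% of all genes belongs to the fit of all libraries. The median difference of the 9 genes was -0.18 at 4 d dark, -0.34 at 5 d dark and -0.06 at 5 d light, beside 0.01, -0.04 and 0.19 over all genes.

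**Figure D5:**
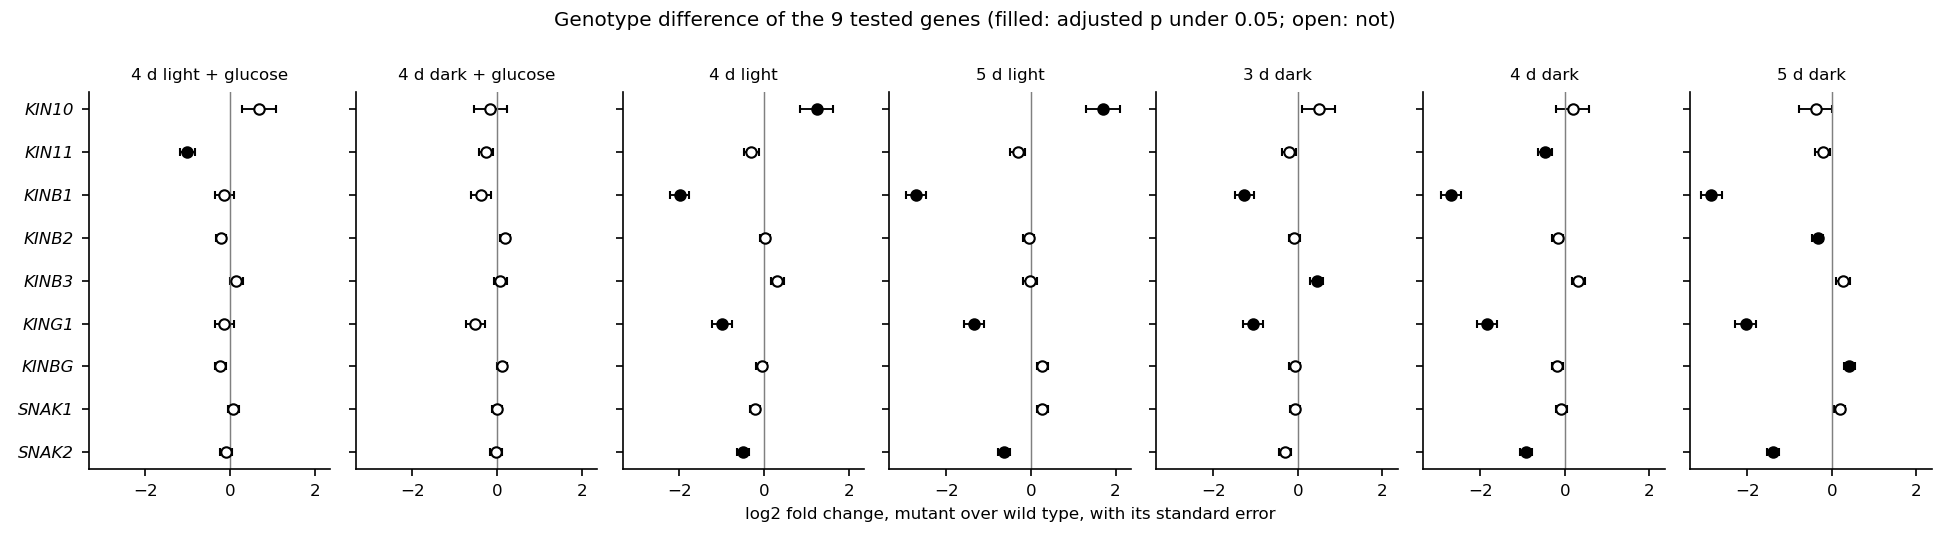
Log2 fold change of mutant over wild type with its standard error (x axis) for the 9 tested genes (y axis) in each of the 7 conditions (panels), n = 3 in each group, with filled points for an adjusted p under 0.05 and open points otherwise. KINB1 runs from -1.26 at 3 d dark to -2.84 at 5 d dark and KING1 from -0.99 to -2.04 without glucose, and with glucose KIN11 in light (-1.01) is the one called gene.

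Fewer genes were called by light and by age. Light over dark in the mutant called 1 gene at 4 d (SNAK1, lower), 1 at 5 d (KIN10, higher) and 0 with glucose, against 2.37%, 11.7% and 1.43% of all genes. In wild type it called 1 at 4 d (SNAK2, lower), 2 at 5 d (SNAK1 and SNAK2, lower) and 0 with glucose, against 27.9%, 35.4% and 7.8%. Each of the 2 counts of 0 came with 2 genes at an unadjusted p under 0.05, and DESeq2 called 0 in the mutant and 1 (SNAK1) in wild type. The KIN10 change in the mutant at 5 d was 1.80 ± 0.40 (adjusted p = 0.00529), and was not called in the fit of these libraries alone (1.80). Without the 3 libraries of highest KIN10 it was 0.44, on mutant library 2 alone in 5 d light. Those libraries were picked for that level, so a smaller change follows from the choice. Leaving out mutant library 2 of 5 d light added KING1 (0.77) and SNAK1 (-0.42) to the 5 d calls, and leaving out mutant library 2 of 4 d light added KIN10 (1.53) to the 4 d calls. By age, the mutant had 1 call at 4 d over 3 d dark, 0 at 5 d over 4 d dark and 0 at 5 d over 4 d light, against 24.2%, 11.6% and 2.6% of all genes. The 2 counts of 0 came with 2 genes in the dark and 1 in light at an unadjusted p under 0.05, and DESeq2 called 1 (KINB2, -0.36) and 0. Wild type had 2 calls, 1 call and 2 calls in the same steps, against 24.2%, 9.42% and 26.8%. Leaving out a library added calls in the mutant. At 5 d over 4 d light, KIN10 was called without library 1 of 4 d (1.74) or 2 of 5 d (1.14), and KINB2 (-0.45) and KINB3 (-0.47) without library 2 of 5 d. At 5 d over 4 d dark, KINB2 was called without library 1 of 5 d (-0.46) and KINBG without library 2 of 4 d (0.46). In wild type, SNAK1 was called at 5 d over 4 d light without library 1 of 4 d (-0.40). Fits of the compared libraries alone added KIN10 (0.44) and KIN11 (0.39) at 4 d over 3 d dark in wild type. They also added KINBG (-0.33) and SNAK1 (-0.34) at 5 d over 4 d light in wild type. Such fits further called KINB2 (-0.31) at 4 d over 3 d dark in the mutant and KING1 (-0.44) for light over dark in wild type at 4 d.

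Glucose called more of them. With glucose over none, the mutant had 4 calls in the dark (KINB2 higher, and KIN11, KINB1 and KINB3 lower) and 2 in light (KIN11 and KINB1, lower), against 40.7% and 43% of all genes. Wild type had 4 in the dark (KIN11, KINB1, KING1 and SNAK2, lower) and 5 in light (the same 4 lower, and KINB2 higher), against 42.9% and 36.4%. KIN11 was the one alpha gene among them and fell in all 4 comparisons. In the mutant its change was -0.67 ± 0.17 (adjusted p = 0.00277) in the dark, lost in the fit of those libraries alone (-0.66), and -1.18 ± 0.18 (adjusted p = 3.26e-06) in light. In wild type it was -0.87 ± 0.17 (adjusted p = 0.000132) in the dark and -0.47 ± 0.17 (adjusted p = 0.0323) in light. The last was lost without any 1 of its 6 libraries (-0.51 to -0.42), with the series difference subtracted (-0.47) and with no scaling factor (-0.20). The drop in light was larger in the mutant, by -0.71 ± 0.25 (adjusted p = 0.0284), a call lost without mutant library 3 of 4 d light (-0.64), mutant library 3 of light with glucose (-0.69), wild-type library 2 (-0.69) or 3 (-0.70) of 4 d light or wild-type library 1 of light with glucose (-0.67), and without the 3 mutant libraries of high KIN10 (-0.64). In the dark the drops did not differ by the test (0.21 ± 0.25). In the fit of all libraries KIN10 was not called with glucose in any of the 4, at -0.90 to -0.03. In wild-type light it was called in the fit of those libraries alone (-0.35). In mutant light it was called without mutant library 2 (-1.25) or 3 (-1.19) of 4 d light or 1 of light with glucose (-1.19), and by DESeq2 (-0.91). In the same comparison KINB2 was called without mutant library 1 of light with glucose (0.34) and KINBG without library 2 (-0.37).

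A further 7 tests asked whether a change differed between the genotypes. The glucose change differed for 3 of the 9 genes in the dark (KINB1, KING1 and SNAK2) and for 3 in light (KINB1, KING1 and KIN11), against 37.3% and 29.8% of all genes. The light change differed for 2 genes at 5 d (KIN10 and SNAK2), against 27.3%. The KIN10 difference was 2.08 ± 0.56 (adjusted p = 0.00618). Without the 3 mutant libraries of high KIN10 it was 0.65, on mutant library 2 alone in 5 d light. Those libraries were picked for that level, so a smaller value follows from the choice. Without mutant library 2 of 5 d light KING1 was called too (0.98), and without wild-type library 3 of dark with glucose KINB2 was called for glucose in the dark (0.47). The light change differed for 0 at 4 d and 0 with glucose, against 9.16% and 0.159%, with 3 and 2 genes at an unadjusted p under 0.05 and 0 and 0 by DESeq2. The step of 4 d over 3 d in the dark differed for 2 (KINB1 and SNAK2) and that of 5 d over 4 d for 0, against 10.6% and 0.235%, the last with 2 genes at an unadjusted p under 0.05 and 0 by DESeq2. Comparisons that share groups share their libraries, so these calls are not independent of those above.

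Genes outside the complex were ranked by how closely their 14 group means of log2 CPM followed each SnRK1 gene, among the 16668 genes that averaged a log2 CPM of 2 or more. The 3 closest to KINB1 were DIN4 (AT3G13450, r = 0.996), BCE2, also called DIN3 (AT3G06850, r = 0.995), and AT2G40420 (r = 0.994). DIN3 and DIN4 encode parts of the branched-chain keto acid dehydrogenase and are known dark-inducible genes. The closest to KING1 were AT1G80180 (r = 0.992), AT4G05150 (r = 0.988) and IVD (AT3G45300, r = 0.987), a dehydrogenase of leucine breakdown. For KIN10 they were AT1G73440 (r = 0.919), CYP71B26 (r = 0.914) and AT3G19430 (r = 0.90), and for KIN11 they were AT1G29800 (r = 0.955), AT4G25940 (r = 0.951) and JMJ18 (r = 0.946). KINB2 was followed by AT1G10850 (r = 0.958), QUA3 (r = 0.956) and BAM2 (r = 0.952). KINB3 was followed by bZIP2 (r = 0.890), AT2G18162 (r = 0.890) and AT5G19240 (r = 0.845), and KINBG by XBAT32 (r = 0.894), AT4G32140 (r = 0.847) and AT5G25040 (r = 0.846). Whether bZIP2 (AT2G18160) and AT2G18162, at the same r, share reads was not checked. The first place for both activating kinases went to the annotated gene that overlaps them, at r = 1.000 for SNAK1 and 0.9998 for SNAK2. The next were AT1G27660 (r = 0.922) and AT3G14172 (r = 0.919) for SNAK1, and AT4G27870 (r = 0.977) and AT3G60200 (r = 0.967) for SNAK2. Within the set the closest pairs were KINB1 with KING1 (r = 0.96) and KIN11 with KINB1 (r = 0.81). All these are descriptions over 14 points that share the same libraries.

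The wider pathway was described with 3 lists drawn from general knowledge of SnRK1, with earlier results of these data known. Of 12 regulators and partners 11 were tested, and in the mutant at 5 d dark 3 were higher and 4 lower, beside 29.9% and 31.4% of all genes. At 3 d dark 2 were higher and 0 lower, beside 17.3% and 14.3% of all genes, and at 4 d dark 2 and 4, beside 29.5% and 28.5%. At 4 d light 4 were higher and 3 lower, beside 28.8% and 25.2%, and at 5 d light 2 and 5, beside 33.4% and 26.4%. With glucose there were 0 and 0 in the dark, beside 0% and 0%, and 1 and 1 in light, beside 4.29% and 5.17%. The median difference was -0.17 at 5 d dark, beside -0.04 over all genes. SEX4, a phosphatase of starch breakdown that carries a carbohydrate-binding part, was higher in the mutant in 6 of the 7 conditions. At 5 d dark it was 20.8 ± 9.17 CPM in mutant seedlings and 6.4 ± 0.309 CPM in wild-type seedlings (1.69 ± 0.23, adjusted p = 1.52e-07). PV42A, a relative of the gamma subunits, was 2.83 ± 0.506 CPM in mutant seedlings and 16.5 ± 1.55 CPM in wild-type seedlings at 5 d dark (-2.53 ± 0.40, adjusted p = 2.29e-06). PRL1, a WD-repeat protein that binds the alpha subunits, was 110 ± 3.68 CPM in mutant seedlings and 68.3 ± 3.52 CPM in wild-type seedlings at 5 d dark (0.69 ± 0.11, adjusted p = 2.98e-06), and at 5 d light it was lower in the mutant (-0.74 ± 0.11, adjusted p = 8.72e-07). ABI1, a phosphatase of ABA signalling that can act on SnRK1, was 88.6 ± 11.9 CPM in mutant seedlings and 48.7 ± 9.69 CPM in wild-type seedlings at 4 d light (0.86 ± 0.20, adjusted p = 0.000411). CUL4, the scaffold of the ubiquitin ligase in which PRL1 takes part, was 73.3 ± 4.36 CPM in mutant seedlings and 98.8 ± 7.93 CPM in wild-type seedlings in light with glucose (-0.43 ± 0.12, adjusted p = 0.0221). DDB1A, its adaptor, was 71.2 ± 5.92 CPM in mutant seedlings and 127 ± 23.0 CPM in wild-type seedlings at 5 d light (-0.83 ± 0.12, adjusted p = 5.97e-07).

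Of 20 genes whose proteins are reported SnRK1 substrates 19 were tested. In the mutant at 4 d dark 2 were higher and 10 lower, beside 29.5% and 28.5% of all genes, and at 5 d dark 5 and 10, beside 29.9% and 31.4%. At 3 d dark 3 were higher and 6 lower, beside 17.3% and 14.3%. In light there were 3 and 10 at 4 d, beside 28.8% and 25.2%, and 3 and 8 at 5 d, beside 33.4% and 26.4%. With glucose there were 0 and 0 in the dark, beside 0% and 0%, and 1 and 4 in light, beside 4.29% and 5.17%. The median difference was -0.60 at 4 d dark and -0.73 at 5 d dark, beside 0.01 and -0.04 over all genes. F2KP, the bifunctional enzyme of fructose 2,6-bisphosphate, was 48.7 ± 3.20 CPM in mutant seedlings and 346 ± 39.6 CPM in wild-type seedlings at 5 d light (-2.83 ± 0.17, adjusted p = 8.69e-15). HMG1, a reductase of isoprenoid synthesis, was 238 ± 19.1 CPM in mutant seedlings and 1360 ± 87.5 CPM in wild-type seedlings at 5 d dark (-2.51 ± 0.19, adjusted p = 1.37e-12). BZIP63, a transcription factor that SnRK1 phosphorylates in starvation, was 32.8 ± 11.1 CPM in mutant seedlings and 195 ± 11.3 CPM in wild-type seedlings at 5 d light (-2.58 ± 0.17, adjusted p = 5.94e-14). KRP6, an inhibitor of cyclin-dependent kinases, moved the other way, at 91.0 ± 25.6 CPM in mutant seedlings and 9.88 ± 2.30 CPM in wild-type seedlings at 5 d dark (3.20 ± 0.27, adjusted p = 2.35e-11). PIF4, a factor of dark growth, was 4.25 ± 0.684 CPM in mutant seedlings and 15.5 ± 4.80 CPM in wild-type seedlings at 3 d dark (-1.86 ± 0.34, adjusted p = 0.000102). In light with glucose the nitrate reductases NIA1 (-1.75 ± 0.25, adjusted p = 6.81e-05) and NIA2 (-1.40 ± 0.26, adjusted p = 0.00078) and the trehalose phosphate synthase-like TPS7 (-0.55 ± 0.12, adjusted p = 0.0036) fell in the mutant.

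The 9 starvation markers, genes known to rise under SnRK1 in the dark, had 0 higher and 7 lower in the mutant at 4 d dark, 5 d dark and 5 d light, 0 and 5 at 3 d dark, 1 and 6 at 4 d light, 0 and 0 in the dark with glucose and 3 and 0 in light with glucose. Of all genes 28.5%, 31.4% and 26.4% were lower at 4 d dark, 5 d dark and 5 d light, 14.3% at 3 d dark, 25.2% at 4 d light and 0% in the dark with glucose, and 4.29% were higher in light with glucose. The markers' median difference was -2.02 at 5 d dark and 0.71 in light with glucose, beside -0.04 and 0.01 over all genes. Their summed level at 5 d dark was 2203 to 2949 CPM in mutant libraries, against 8728 to 10520 CPM in wild type. In light with glucose it was 506 to 839 CPM in mutant libraries, against 282 to 312 CPM in wild type. DIN3 and DIN4 belong to this list and are also the genes whose levels lay closest to KINB1.

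Markers of tissues moved with genotype beside these results. All 4 green mesophyll markers were called lower in the mutant at 4 d dark, 4 d light, 5 d dark and 5 d light, 3 of 4 at 3 d dark, 1 of 4 in light with glucose and 0 of 4 in the dark with glucose. For these and the other marker lists, the share of all genes called lower was 14.3%, 28.5% and 31.4% at 3 d, 4 d and 5 d dark, 25.2% and 26.4% at 4 d and 5 d light, and 0% and 5.17% in the dark and in light with glucose. The share called higher was 33.4% at 5 d light and 4.29% in light with glucose. The mesophyll sum was 2166 to 3733 CPM in mutant libraries of 5 d light, against 31470 to 37890 CPM in wild type. At 5 d dark it was 1218 to 3345 CPM in mutant libraries, against 3496 to 8881 CPM in wild type. Of 7 shoot apex and epidermis markers 6 were lower at 4 d dark and 5 d dark, and of 10 root markers 5 and 7. At 3 d dark, 4 d light and 5 d light the apex list had 3, 4 and 5 lower and the root list 2, 4 and 2, with 1 of each list higher at 5 d light. With glucose both lists had 0 called in the dark and 1 lower in light, where 1 root marker was higher. All 4 tested embryo and seed markers were called higher in the mutant at 5 d light, where library 3 held most of them, and both pollen markers were called lower at 4 d light. At 5 d dark the root markers summed to 78.6 to 99.01 CPM in mutant libraries, against 176 to 207 CPM in wild type. The root, apex and mesophyll lists each had at least 4 genes at 1 CPM or more in every group. LEC1 of the embryo list was at 0 in 20 of 42 libraries. The part of tissue makeup in the differences of the SnRK1 genes was not tested.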

How the data were processed

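Total RNA of whole seedlings was sequenced in 42 libraries. Per the submitters' processing notes, the authors used STAR, featureCounts 1.6.2 and DESeq2 with the TAIR10 genome. The authors deposited unnormalized counts for each transcript model. Per the file headers, a read overlapping several models was counted for each, and no strand option was set. The exon length of each model is the authors' deposited value. From these, 48 columns of counts were used and 1 duplicate column was not. The 40745 rows gave 32678 genes, 5883 of them with several models, and 0 rows named no gene. The model of greatest length was kept for each gene, and such models held 65.2% of counts. The 3 d dark libraries appear in 2 title series. Columns of the same number differed by about sampling noise (chi-square per degree of freedom 1.037 to 1.057 over genes of at least 50 counts, against 7.121 to 41.293 between different numbers), so each pair was summed and counted as 1 sample.

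edgeR 4.0.16 in R 4.3.3 (limma 3.58.1) fitted all 42 libraries of 14 groups by robust quasi-likelihood after filterByExpr (22586 genes) and TMM scaling, with 28 residual degrees of freedom. Its biological coefficient of variation was 21.1%. The fit gave 30 comparisons, 23 between 2 groups and 7 interactions, with Benjamini-Hochberg adjustment over all tested genes and a threshold of 0.05. The script was tested on simulated data. Alternatives were DESeq2 1.42.0, its size factors, no filter, summed models, a replicate block, only the libraries compared, other uses of the 3 d dark columns, leaving out each library, leaving out libraries that stood apart, and library totals with no scaling factor. The last was chosen after seeing the data. Library totals of 4956025 to 26126836 counts set the precision, and floors cover counting error only.

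The genes and lists were chosen with earlier results of these data known. All 10 SnRK1 genes are named. In each genotype comparison up to 3 called genes of the regulator and target lists with the smallest adjusted p were eligible, and for each tested gene the 3 closest by group means. Same-numbered libraries deviated together at 3 d dark, with correlations of 0.139 to 0.19 in 3 of 3 pairs, and in no other condition did all pairs exceed 0.1. All 10 genes and 31912 identifiers in all matched RefSeq locus tags of TAIR10.1, from which sequences were read.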

Additional observations from a re-analysis of the deposited data

Results flagged for a closer look

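In 7 interaction tests of the 9 tested genes, the genotypes changed differently in 10 single-gene results. Each is an interaction term of the edgeR fit with n = 3 in each group and p adjusted over all genes. Of all genes, 37.3% were called for glucose in the dark and 29.8% for glucose in light. For 4 d over 3 d in the dark 10.6% were called, and for light at 5 d 27.3%. Positive values mean a higher change in the mutant than in wild type. For glucose in the dark they were KINB1 at 2.30 ± 0.33 (adjusted p = 3.64e-06), KING1 at 1.32 ± 0.33 (adjusted p = 0.00194) and SNAK2 at 0.90 ± 0.20 (adjusted p = 0.000637). For glucose in light they were KINB1 at 1.86 ± 0.33 (adjusted p = 5.78e-05), KING1 at 0.86 ± 0.33 (adjusted p = 0.0458) and KIN11 at -0.71 ± 0.25 (adjusted p = 0.0284). For 4 d over 3 d in the dark they were KINB1 at -1.42 ± 0.32 (adjusted p = 0.00629) and SNAK2 at -0.61 ± 0.20 (adjusted p = 0.0425). For light at 5 d they were KIN10 at 2.08 ± 0.56 (adjusted p = 0.00618) and SNAK2 at 0.77 ± 0.20 (adjusted p = 0.00486). The KIN10 value rested on 2 of the 3 mutant libraries at 5 d light. Without the 3 mutant libraries of highest KIN10 it was 0.65, on mutant library 2 alone in 5 d light, and a smaller value follows from that choice. Calls for glucose in light of KING1 and KIN11, and both calls of SNAK2 outside glucose, were lost under alternatives given above. The values for glucose in the dark include the libraries labelled mutant 2 and wild type 2, which lay beside the other genotype.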

How the results depend on the processing

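Of 4410 recomputed log2 fold changes of the 9 tested genes, 4085 kept their direction and side of the threshold, 161 uncalled ones changed sign, 61 gained a call and 2 were called with the opposite sign, while the rest lost a call. The 2 opposite signs came with no scaling factor at 5 d light, for KINB2 (0.39) and KINB3 (0.42). That setting moved the median of all genes by up to 0.44 (log2, 5 d light). The share of called genes higher in the mutant was then 75.7% at 5 d light, 70.3% at 3 d dark, 66.2% at 4 d dark, 70.8% at 4 d light and 60.8% at 5 d dark, against 55.9%, 54.8%, 50.9%, 53.4% and 48.8% with TMM. The causes were not tested.

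Counts of called SnRK1 genes moved as follows, with counts over all genes given for no scaling factor alone. With no scaling factor the mutant over wild type count was 7 (4 with TMM) at 5 d light, light over dark in wild type at 4 d gave 2 (1), 5 d over 4 d light in wild type 4 (2), glucose in wild-type light 3 (5), the light interaction at 5 d 4 (2) and the 4 d over 3 d interaction 1 (2). Over all genes the same comparisons gave, in that order, 14978 (13508), 6605 (6293), 6021 (6060), 9583 (8211), 6644 (6175) and 2500 (2392) calls. With only the libraries compared, mutant over wild type gave 5 (3) at 3 d dark and 2 (1) in light with glucose. Light over dark then gave 0 (1) at 4 d and 0 (1) at 5 d in the mutant, and 2 (1) at 4 d and 1 (2) at 5 d in wild type. Age gave 2 (1) for 4 d over 3 d dark in the mutant, 4 (2) for it in wild type and 4 (2) for 5 d over 4 d light in wild type, and the light interaction at 5 d gave 1 (2). Without the 3 mutant libraries of highest KIN10, light over dark in the mutant gave 0 (1) at 4 d. At 5 d light that setting left mutant library 2 alone, so no count is given. Without both doubtful dark glucose libraries, which were picked for lying beside the other genotype, mutant over wild type gave 2 (0). With no filter, light over dark in the mutant at 4 d gave 0 (1), 5 d over 4 d dark in wild type 0 (1) and the 4 d over 3 d interaction 1 (2). Summed models gave 0 (1) and 1 (2) in the last 2 of these. DESeq2 gave 1 (0) for light over dark in wild type with glucose and 1 (0) for 5 d over 4 d dark in the mutant. Subtracting the title series difference, which adds error and cannot test the glucose series, gave 2 (4) for glucose in the mutant in the dark and 3 (5) in wild-type light. DESeq2 size factors, and the second title series alone at 3 d, each gave 1 (2) for the 4 d over 3 d interaction. The replicate block gave 0 (1) for 5 d over 4 d dark in wild type and changed no other call. Whether the numbers pair libraries is not settled by the correlations of 0.139 to 0.19 between same-numbered libraries at 3 d dark.

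Leaving out 1 library at a time gave 1 to 3 calls among the SnRK1 genes for mutant over wild type in light with glucose. Counts over all genes for each left-out library are not given here. Light over dark gave 0 to 1 in the mutant at 4 d, 1 to 3 in the mutant at 5 d and 1 to 2 in wild type at 5 d. Age in the mutant gave 0 to 1 for 4 d over 3 d dark, 0 to 1 for 5 d over 4 d dark and 0 to 4 for 5 d over 4 d light, and in wild type 0 to 1 for 5 d over 4 d dark. Glucose in light gave 2 to 4 in the mutant and 3 to 4 in wild type. The 4 d over 3 d interaction gave 1 throughout and the glucose interaction in light 1 to 3. Depth limits KIN12, with 13 counts in all.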
